A study of Mus musculus with 3 samples.

Results

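H3K27ac, the acetylated form of lysine 27 of histone H3 that marks promoters and enhancers in use, was examined at 10 genes whose products fold interphase chromosomes. They are Ctcf, the cohesin ring genes Rad21, Smc1a and Smc3, the genes of the alternative ring-bound subunits Stag1 and Stag2, the loader gene Nipbl, and the release and regulatory genes Wapl, Pds5a and Pds5b. The genes were chosen by name, and all 10 were found among 21887 protein-coding genes of RefSeq on mm10 (GRCm38.p6). The study measured wild-type lymphocytes beside lymphocytes without the Igk or Tcrb enhancer. The samples used here are 2 H3K27ac chromatin immunoprecipitation libraries, replicates 1 and 2, from wild-type CD4-CD8- double-negative (CD25+CD44-/+) thymocytes. These cells were sorted from the thymus of C57BL/6J mice of 5 to 7 weeks and processed without culture. The labels carry no transgene, deletion or treatment for these samples, and they do not say how many mice gave each replicate. An input library (n = 1) of the same cells was not analysed here. Whether the peak values were set against it is not given in the sources used here.

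CTCF is a zinc finger protein that binds DNA and marks the anchors of chromatin loops. Cohesin is a ring of SMC1A, SMC3 and RAD21 bound by STAG1 or STAG2. It is loaded onto chromatin with the help of NIPBL, extrudes loops until it meets CTCF, and is taken off by WAPL with PDS5 proteins. In lymphocyte precursors these proteins shape the antigen receptor loci, where distant gene segments are brought together for recombination.

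Every one of the 10 genes had an H3K27ac peak inside its annotated span in replicate 1, and 8 had one in replicate 2. The same 8 genes had bases covered by peaks of both replicates. Smc1a and Stag1 were without a peak in replicate 2. Of protein-coding genes of at least 30 kb, which is the size range of the 10 genes (30.9 to 360.8 kb), 45.5% had a peak in the body in replicate 1, 38.0% in replicate 2, and 22.5% had bases shared by both. These shares describe the genes side by side; no test was made, since the genes were listed with earlier results of these data known and the design holds 1 condition.

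The shared acetylation inside the 8 genes lay in 9 stretches, 2 of them in Stag2 and 1 in each of the others. In a summed gene length of 1137.7 kb, peaks covered 12907 bp in replicate 1, 11058 bp in replicate 2 and 6789 bp in both. The shared bases made up 0.597% of the 10 genes, against 0.118% of all protein-coding genes of at least 30 kb. Of the bases of the 10 genes under a peak of either replicate, 39.5% were under peaks of both, against 22.2% in the long genes and 20.6% over the genome.

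**Figure D1:**
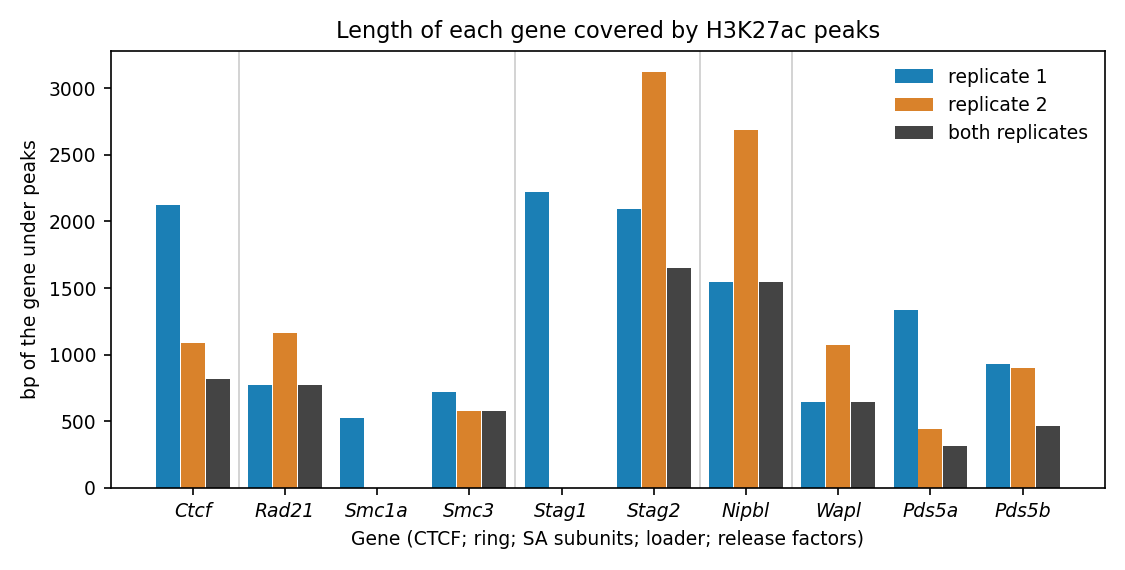
Bases of each gene under H3K27ac peaks in replicate 1, in replicate 2 and in both, with the genes ordered by role. Stag2 and Nipbl have the most shared bases (1654 and 1544 bp), and Smc1a and Stag1 have none because replicate 2 has no peak there.

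The starts of 7 of the genes were listed in the RefSeq promoter table of the same build, and 5 of their promoters are printed here because the acetylation lies at or just after these bases. Each sequence runs 5′ to 3′ from 250 bases before the listed start to 50 bases after it. The capitals mark the string AAAATGGCG or its reverse complement CGCCATTTT in Ctcf, Smc3, Stag1 and Pds5b, and GGGCGG in Smc1a, which lacks that string.
Ctcf (chr8:105636288-105636587, plus strand): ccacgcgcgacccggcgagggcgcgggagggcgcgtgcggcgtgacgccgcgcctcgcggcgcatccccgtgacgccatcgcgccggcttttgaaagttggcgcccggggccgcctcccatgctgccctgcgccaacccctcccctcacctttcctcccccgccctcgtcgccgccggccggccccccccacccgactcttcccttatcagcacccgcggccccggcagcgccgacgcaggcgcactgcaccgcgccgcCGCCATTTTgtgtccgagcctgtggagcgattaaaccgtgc
Smc3 (chr19:53600146-53600445, plus strand): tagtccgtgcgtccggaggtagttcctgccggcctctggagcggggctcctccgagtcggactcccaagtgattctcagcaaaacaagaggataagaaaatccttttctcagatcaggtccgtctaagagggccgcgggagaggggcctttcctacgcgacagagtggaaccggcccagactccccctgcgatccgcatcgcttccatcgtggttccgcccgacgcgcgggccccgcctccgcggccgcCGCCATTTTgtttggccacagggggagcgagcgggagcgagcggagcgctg
Stag1 (chr9:100643198-100643497, plus strand): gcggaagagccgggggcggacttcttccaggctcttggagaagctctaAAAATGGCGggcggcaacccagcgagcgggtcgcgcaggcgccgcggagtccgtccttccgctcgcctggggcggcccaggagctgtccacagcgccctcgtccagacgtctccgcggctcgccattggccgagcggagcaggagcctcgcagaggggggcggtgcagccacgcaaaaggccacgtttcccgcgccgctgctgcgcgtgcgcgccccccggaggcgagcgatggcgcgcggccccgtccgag
Pds5b (chr5:150673577-150673876, plus strand): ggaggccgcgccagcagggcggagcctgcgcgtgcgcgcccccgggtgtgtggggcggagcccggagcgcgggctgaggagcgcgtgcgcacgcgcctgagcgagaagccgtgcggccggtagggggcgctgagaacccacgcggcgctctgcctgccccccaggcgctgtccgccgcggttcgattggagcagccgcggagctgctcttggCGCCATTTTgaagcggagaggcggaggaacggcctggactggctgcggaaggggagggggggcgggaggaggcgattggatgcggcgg
Smc1a (chrX:152016178-152016477, plus strand): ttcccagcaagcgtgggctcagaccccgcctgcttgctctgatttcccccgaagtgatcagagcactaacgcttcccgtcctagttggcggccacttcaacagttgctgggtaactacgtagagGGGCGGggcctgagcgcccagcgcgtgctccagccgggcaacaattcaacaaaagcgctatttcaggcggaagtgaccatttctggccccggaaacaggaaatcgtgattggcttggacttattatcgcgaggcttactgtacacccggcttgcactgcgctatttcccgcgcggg

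All 7 promoters were rich in CpG. They held 23 to 55 CpG in 300 bases with a median of 41, against a median of 7 over 32851 listed promoters. Their GC content ran from 58.3% in Smc1a to 80.3% in Pds5a, with a median of 73.7%, against 52.7% over all listed promoters. The median promoter of genes with a peak at a listed start in both replicates had 24 CpG and 62.3% GC. The CpG count went with the acetylation of genes at large: a peak within 1 kb of a listed start was present in both replicates in 35.5% of genes with at least 23 CpG and in 10.2% of genes with fewer. For the 7 genes the count was 4.

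Strings of letters were counted on either strand in all 32851 listed promoters and in the 6845 of them with at least the lowest GC and CpG of the 7, called rich promoters here. The letters GGGCGG, the GC box core, were found in all 7 promoters, against 84.3% of rich promoters and 35.7% of all. CCAAT was found in Smc1a, Stag1, Wapl and Pds5b, against 30.9% of rich promoters and 37.4% of all. The ETS string CCGGAAG was found in none of the 7, against 18.8% of rich promoters and 8.86% of all. The TATA box string TATAAA was also in none, against 3.02% of rich promoters and 13.6% of all, and so was the E box CACGTG, against 11.5% and 7.15%. The longer strings searched for NRF1, YY1 and CTCF were in none of the 7, against 2.64%, 2.21% and 0.131% of rich promoters and 0.971%, 0.852% and 0.0365% of all. Only these set strings were counted for the 3 factors, so sites with other letters are not excluded. Strings that resemble those of YY1 and NRF1 were found in 4 promoters each and are given below. After the sequences had been read, every string of 9 letters was compared between the promoters. Of 1868 different strings, 2 occurred in at least 4 of the 7 promoters. AAAATGGCG occurred in those of Ctcf, Smc3, Stag1 and Pds5b, in 70 (1.02%) of the rich promoters and in 155 (0.472%) of all. The other, CGCACGCGC, occurred in Ctcf, Stag1, Wapl and Pds5b, in 6.37% of the rich promoters and in 1.83% of all. AAAATGGCG shares the letters ATGGCG with the YY1 string above, and the reverse complement of CGCACGCGC, GCGCGTGCG, resembles the NRF1 string. A match to letters describes the window and is not a bound site, and these strings were picked from the promoters of the genes, so their counts there are no test.

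Acetylation at the listed starts lay on the downstream side. In replicate 1 all 7 genes had a peak within 1 kb of the start, and in replicate 2 it was 4, against 26.4% and 23.7% of protein-coding genes with a listed start. The centres of these 11 peaks lay 94.5 to 651.5 bp downstream of the start. Over all peaks within 1 kb of a listed start, centres lay downstream in 70.7% of cases in replicate 1 and 69.9% in replicate 2, with medians of 179.5 and 148.5 bp. Of these peaks, 5 of 7 in replicate 1 and 3 of 4 in replicate 2 contained the start itself. Over all peaks within 1 kb of a listed start the shares were close to that, at 62.0% and 63.7%. In Smc3 and Wapl the start was inside the peaks of both replicates.

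**Figure D2:**
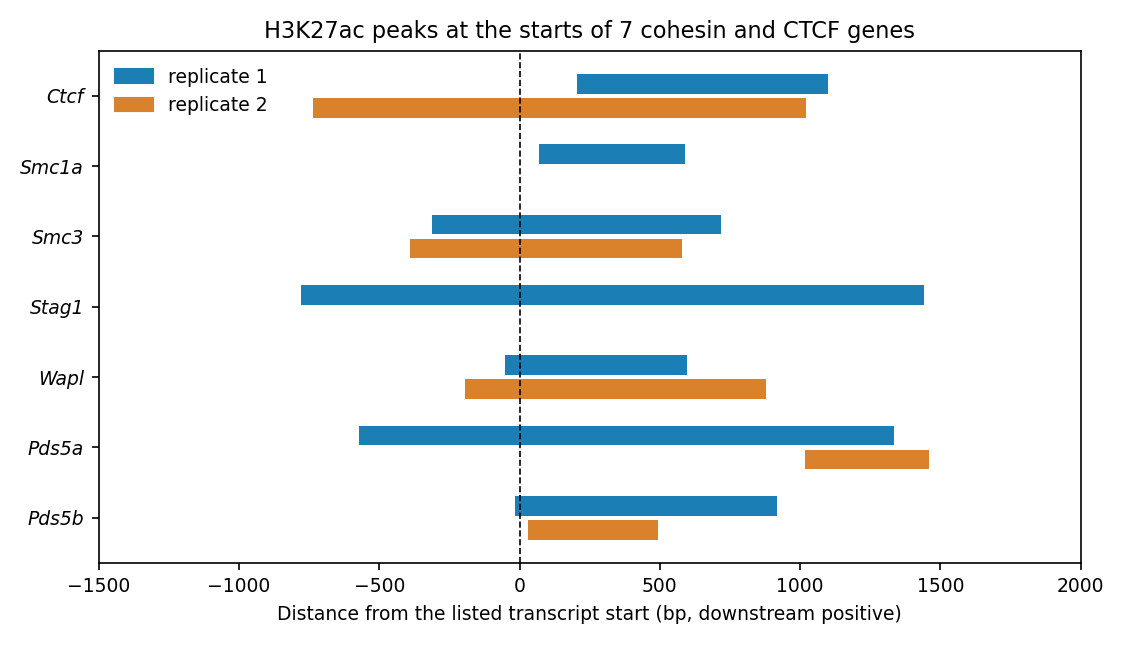
H3K27ac peaks within 1100 bp of the listed transcript start of 7 genes, drawn as bars from the first to the last base of each peak, with downstream positive. Smc3 and Wapl have the start inside the peaks of both replicates, Smc1a and Stag1 have a peak in replicate 1 alone, and the replicate 2 peak of Pds5a begins 1019 bp downstream.

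Ctcf, which encodes the loop anchor protein, had a peak at its start in both replicates. The replicate 1 peak (chr8:105636743-105637636) was 894 bp wide with a fold enrichment of 2.36, and the replicate 2 peak (chr8:105635802-105637557) was 1756 bp wide with a fold of 2.31. The fold is the enrichment that the authors' peak caller gave each peak. The replicates shared 815 bp. The peak of replicate 2 contained the start, and that of replicate 1 began 205 bp after it. The last annotated base of the long noncoding RNA gene Gm5914 lies under both peaks as well, so the acetylation there cannot be assigned to Ctcf alone. A further replicate 1 peak of 1231 bp, with a fold of 2.29, began 12004 bp into Ctcf and had no counterpart in replicate 2.

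Most of the shared acetylation around Ctcf belonged to the ends of other genes. Of the 4256 bp shared by the replicates within 25 kb of the gene, 3441 bp (80.9%) lay outside it. A stretch of 1324 bp lay between Ripor1 and Gm5914, within 1 kb of an end of each. A stretch of 278 bp lay beyond the 3′ side of Ctcf, 87 bp from Gm33578 and inside Carmil2, 297 bp from an end of that gene. The largest, of 1839 bp, lay over the adjoining ends of Acd, which encodes a telomere protein, and Pard6a, a cell polarity gene. The acetylated length of Ctcf, counted as the shared bases within 25 kb of the better covered gene end, was 2139 bp, and within 10 kb it was the 815 bp at its own start.

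**Figure D3:**
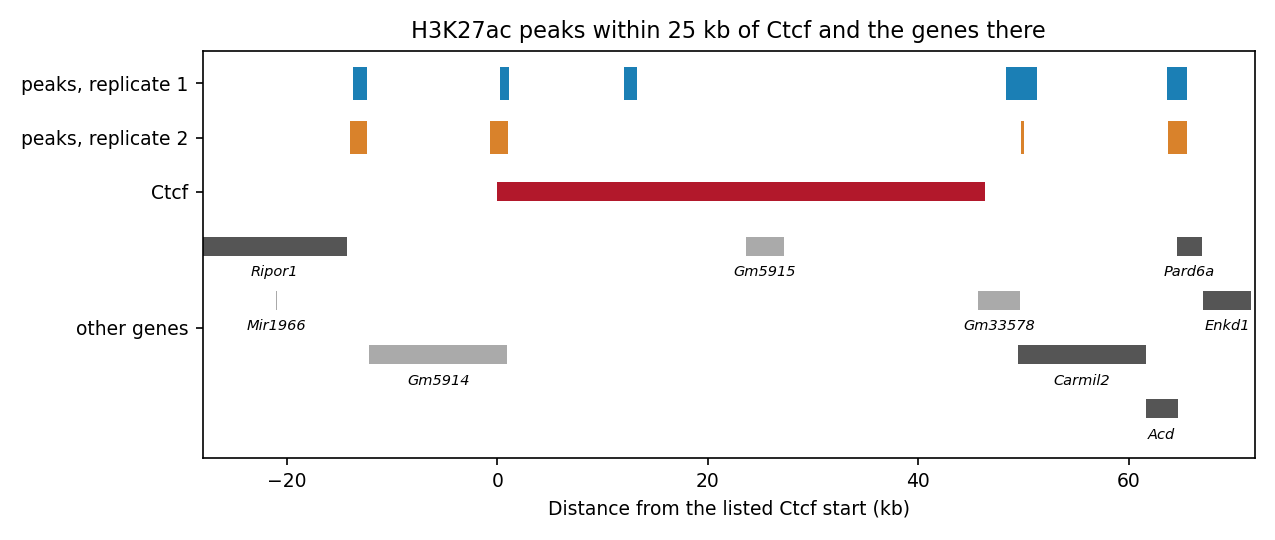
H3K27ac peaks of each replicate within 25 kb of Ctcf, above Ctcf (red), other protein-coding genes (dark grey) and noncoding genes and pseudogenes (light grey), by distance from the listed Ctcf start in kb. Only the peaks at 0 kb are shared by the replicates inside Ctcf, and the replicate 1 peak at 12 kb stands alone.

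Among the ring genes, Smc3 had the tallest peak of the 10 genes. Its peaks were nearly the same in extent, 1030 bp in replicate 1 (chr19:53600083-53601112) and 968 bp in replicate 2 (chr19:53600007-53600974), with 892 bp in common. Their folds differed, at 2.20 in replicate 1 and 3.95 in replicate 2. Among peaks at protein-coding gene ends in the same replicate these stood at percentiles 53.9 and 93.8. No other gene end lay within 1 kb of the region shared at Smc3.

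Rad21, which encodes the cleavable link of the ring, was acetylated in both replicates but not within 1 kb of its annotated ends. Its peaks were 771 bp (chr15:51991007-51991777) and 1164 bp (chr15:51990923-51992086), with folds of 2.06 and 2.11. The replicate 1 peak lay wholly inside that of replicate 2. They lay 1761 bp and 1452 bp inside the upper end of the annotated gene. The lower end of Gm52217, an annotated protein-coding gene that overlaps Rad21, lay 32 bp from the replicate 1 peak and inside the replicate 2 peak. The shared bases lay within Gm52217, so the acetylation there cannot be assigned to Rad21 alone.

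Smc1a, the partner of SMC3 in the ring, had 1 peak, of 521 bp, in replicate 1 (chrX:152016496-152017016) with a fold of 2.10 and a −log10 q of 0.629. It began 68 bp after the listed start and contained the end of the neighbouring gene Ribc1. Replicate 2 had no peak within 25 kb. Smc1a had the fewest CpG of the 7 promoters, 23 in 300 bases. Stag1 and Pds5a, also without a replicate 2 peak within 1 kb of the start, had 43 and 55. The 4 genes with such a peak in both replicates had 32 (Smc3) to 47 (Ctcf).

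The SA subunit genes Stag1 and Stag2 encode alternative partners of the ring and differed in what the replicates shared. Stag2 was covered broadly at one end in both. Replicate 1 had 2 peaks there, 939 bp (chrX:42149533-42150471, fold 2.72) and 1156 bp (chrX:42151707-42152862, fold 2.26). Replicate 2 had 1 peak of 3915 bp (chrX:42148507-42152421, fold 2.20) over both positions. The shared bases came to 1654 bp, more than in any other gene body of the 10. In width the replicate 2 peak stood at percentile 99.9 of gene-end peaks of that library. Gene-end acetylation was less frequent on the X chromosome, with a peak in both replicates in 5.49% of 966 protein-coding genes, against 16.8% over all chromosomes.

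Stag1 had 1 peak, in replicate 1 (chr9:100642668-100644888), and none in replicate 2. The peak was 2221 bp wide, contained the listed start, and lay 44959 bp inside the lower end of the annotated gene, so the count by gene ends misses it. Its fold of 1.74 stood at percentile 14.2 of gene-end peaks, and its −log10 p was 34.7. Within 5 Mb of the Stag1 start, 37 of 43 peaks in replicate 1 and 26 of 28 in replicate 2 had this combination of a fold under 2 and a −log10 p of at least 5. Outside chromosomes 6, 9, 14 and 17 the combination occurred in 35 of 9992 peaks of replicate 1 and 42 of 7696 of replicate 2. Its part in the Stag1 call was not tested.

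Nipbl, the loader gene, has an annotated span of 175.5 kb and had its shared acetylation in 1 broad region inside that span. No start or strand was listed for Nipbl, so whether the region lies at a transcript start is not known. The peaks were 1544 bp in replicate 1 (chr15:8443764-8445307) and 2689 bp in replicate 2 (chr15:8443647-8446335), with folds of 2.15 and 2.21. The replicate 1 peak lay wholly inside the wider one, which stood at percentile 98.8 of gene-end peaks of its library in width. The region lay 20008 bp from the nearer annotated end of Nipbl. It lay within LOC102634078, a predicted protein-coding gene inside Nipbl, 556 bp from the upper end of that gene. The replicate 2 peak contained that end, so the acetylation there cannot be assigned to Nipbl alone. A peak of 849 bp with a fold of 1.95 lay 9665 bp outside the lower end of Nipbl in replicate 1 alone, over an end of the noncoding gene Gm52208.

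Wapl, which encodes the factor that opens the ring for release, had a peak over its listed start in both replicates. The peaks were 647 bp (chr14:34673877-34674523) and 1073 bp (chr14:34673732-34674804), the first lying wholly inside the second. Their folds were low, at 1.98 and 1.398, and their −log10 p values were high, at 41.0 and 19.4. Wapl lies in the same kind of neighbourhood as Stag1. Within 5 Mb of its start, 43 of 46 peaks in replicate 1 and 33 of 36 in replicate 2 showed that combination. The small p of the Wapl peaks thus stands beside a fold under the library medians (2.17 and 2.31), and the part of the neighbourhood in it was not tested. The shared region lay 1498 bp from the lower annotated end of Wapl. It lay within the noncoding gene 5830448L01Rik, 145 bp from the upper end of that gene. The replicate 2 peak contained that end, so the acetylation there cannot be assigned to Wapl alone. Replicate 1 alone had a further peak of 630 bp (chr14:34769334-34769963) with a fold of 1.34, 21351 bp beyond the upper end of Wapl. It lay within the noncoding gene A930038B10Rik, 138 bp from an end.

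**Figure D4:**
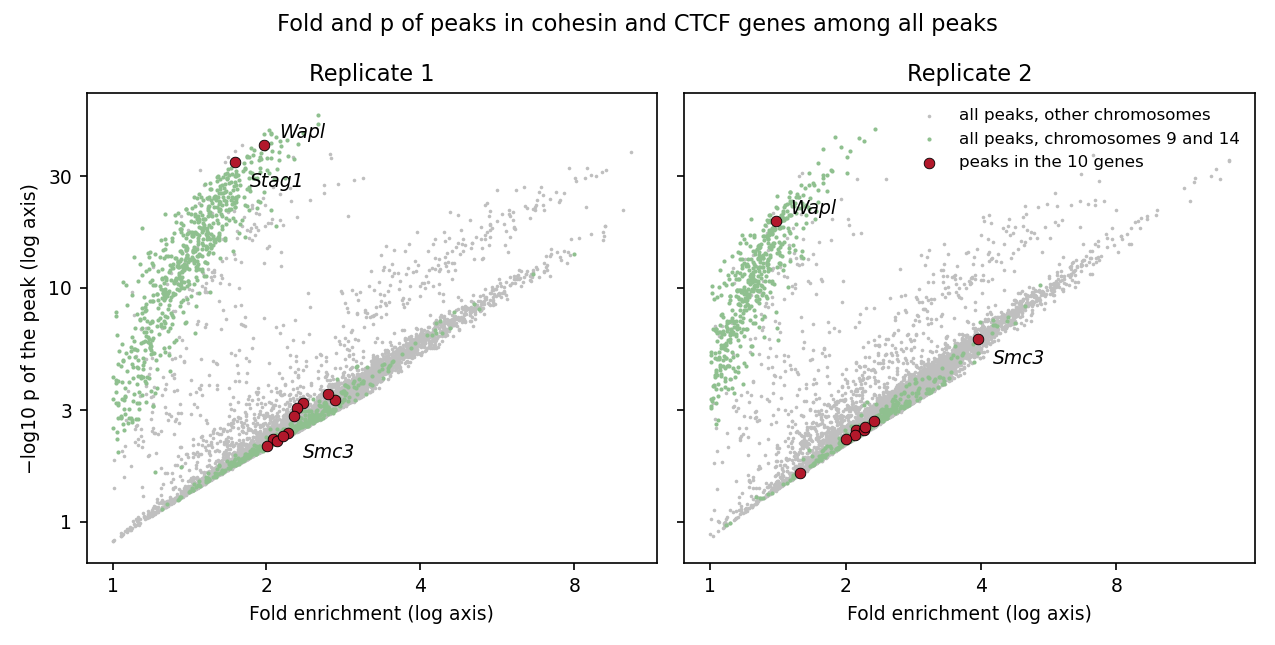
Fold enrichment and −log10 p of every peak in each replicate (both axes logarithmic), with peaks inside the 10 genes in red and all peaks of chromosomes 9 and 14 in green. The Stag1 and Wapl peaks lie in the band of low fold and high −log10 p, and the other peaks of the 10 genes lie in the main band.

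Pds5a and Pds5b encode paralogs that hold WAPL on the ring, and both had peaks of each replicate near the start. At Pds5a the peak of replicate 1 was 1904 bp (chr5:65696904-65698807) with a fold of 2.64, and that of replicate 2 was 441 bp (chr5:65696777-65697217) with a fold of 2.10. They shared 314 bp, the least of the 8 genes with shared bases. The replicate 2 peak lay 1019 bp from the start, just outside the 1 kb window. At Pds5b the peaks were 933 bp (chr5:150673811-150674743) and 465 bp (chr5:150673856-150674320), with folds of 2.01 and 2.01. The second lay wholly inside the first. A second shared region of 465 bp lay 8213 bp before Pds5b and 248 bp from an end of N4bp2l2. A replicate 2 peak of 438 bp deep in Pds5b had a fold of 1.58 and the lowest −log10 q of the peaks near these genes, 0.4998.

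By the rule of a peak within 1 kb of either annotated end in both replicates, 4 of the 10 genes were acetylated, against 16.8% of all protein-coding genes and 18.9% of those of at least 30 kb. They were Ctcf, Smc3, Stag2 and Pds5b. In replicate 1 alone 6 genes met the rule (25.1% of all genes), and in replicate 2 alone 4 (22.2%). With a window of 2.5 kb the count was 7 (18.9% of all genes), with Rad21, Wapl and Pds5a added. With a peak in either replicate it was 6 (30.5% of all genes). Shared bases over 1 kb inside the ends were present in 6 of the 10, namely Ctcf, Rad21, Stag2, Nipbl, Wapl and Pds5a, against 9.59% of protein-coding genes of at least 30 kb. In Ctcf these came to 83 bp, the tail of the stretch at its start. In Wapl the stretch covered the listed start, and in Pds5a it lay 1019 bp from the start. Rad21, Stag2 and Nipbl have no listed start, so the distance of their stretches from a start is not known. Counting the gene and 25 kb on either side, 8 of the 10 had shared bases, against 30.9% of all protein-coding genes. By listed starts in place of ends it was 4 of 7 (18.2% of all genes), with Wapl in and Stag2 without a listed start. Each role group thus held genes inside and outside the 1 kb rule except CTCF, with its single gene inside, and the loader, with its single gene outside. By shared bases in the body the groups ran from 815 bp in Ctcf, 0 to 771 bp in the ring, 0 to 1654 bp in the SA genes and 1544 bp in Nipbl to 314 to 647 bp in the release genes, and no group stood apart from the rest.

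In fold, the peaks stood near the gene-end peaks of replicate 1 and mostly below those of replicate 2. The 12 peaks inside the genes in replicate 1 had a median fold of 2.18 (1.74 to 2.72), and the 9 in replicate 2 a median of 2.11 (1.398 to 3.95). All gene-end peaks had medians of 2.16 and 2.32. In replicate 2 every peak inside the genes except that of Smc3 was under this median, at percentiles 6.27 (Wapl) to 48.9 (Ctcf). In width the peaks of the 10 genes had medians of 984.5 bp and 1073 bp, against 761 bp and 681 bp for gene-end peaks. A q-value of at most 0.05 was reached by 5 of the 12 peaks in replicate 1 and by 2 of the 9 in replicate 2, against 27.01% and 42.94% of gene-end peaks. Those 7 were 2 at Stag2, 1 at Pds5a, 1 at Stag1 and 2 at Wapl over both replicates, and 1 at Smc3 in replicate 2. Only Wapl reached that q in both replicates, so 7 of the 8 genes with shared bases rest on a peak with a larger q in at least 1 replicate.

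Other genes of cohesion and loop formation were read by the same 1 kb rule. Of 43 such genes in 4 lists, 24 (55.8%) had a gene-end peak in both replicates, against 16.8% of all protein-coding genes. The lists were chosen with earlier results of these data known. Condensin and SMC5/6 genes stood at 10 of 12. They were Smc2, Smc4, Ncaph, Ncaph2, Ncapg2, Ncapd2 and Ncapd3 of condensin, Smc6 and Nsmce2 of the SMC5/6 complex, and Smchd1, an SMC-like silencing factor. Smc4 had 2495 bp of acetylated length and Ncapd2 had 2332 bp. These lengths reach 25 kb from an end and may include bases at neighbouring genes, which were not examined for the list genes.

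Partners of loops and insulators stood at 9 of 12, with Yy1, Zfp143, Maz, Adnp, Top2b, Vezf1, Patz1, Ddx5 and Satb1. Patz1, a zinc finger gene, had 3384 bp of acetylated length, Ddx5, an RNA helicase, 2957 bp, and Yy1, a zinc finger factor at enhancer and promoter contacts, 2758 bp. Their gene-end folds in replicates 1 and 2 were 1.49 and 1.52 for Patz1, 3.46 and 2.57 for Ddx5, and 2.49 and 3.57 for Yy1. Here too, how much of each length lies at neighbouring genes was not examined. Cohesin loading and cohesion genes stood at 5 of 14. These were Mau2, the partner of NIPBL (folds of 2.58 and 2.42), Esco1, a cohesin acetyltransferase (2.38 and 9.87), Cdca5, which encodes sororin (1.98 and 2.96), Dscc1 (1.73 and 1.56) and Brca2 (2.14 and 1.97). The germline paralogs Ctcfl, Smc1b, Stag3, Rec8 and Rad21l, relatives of Ctcf, Smc1a, the SA genes and Rad21, lacked a gene-end peak in replicate 1 and in replicate 2. Of all protein-coding genes, 25.1% had one in replicate 1 and 22.2% in replicate 2. Inside the gene spans, the somatic counterparts Ctcf, Smc1a, Stag1, Stag2 and Rad21 had a peak in 5 of 5 cases in replicate 1 and in 3 of 5 in replicate 2. For the germline paralogs it was 1 of 5 and 0 of 5, and for all protein-coding genes of at least 30 kb 45.5% and 38.0%. The spans differ in length: Ctcfl, Rec8 and Rad21l are shorter than 30 kb and all of the somatic counterparts are longer, so these counts are not like for like. The groups were not tested against each other.

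**Figure D5:**
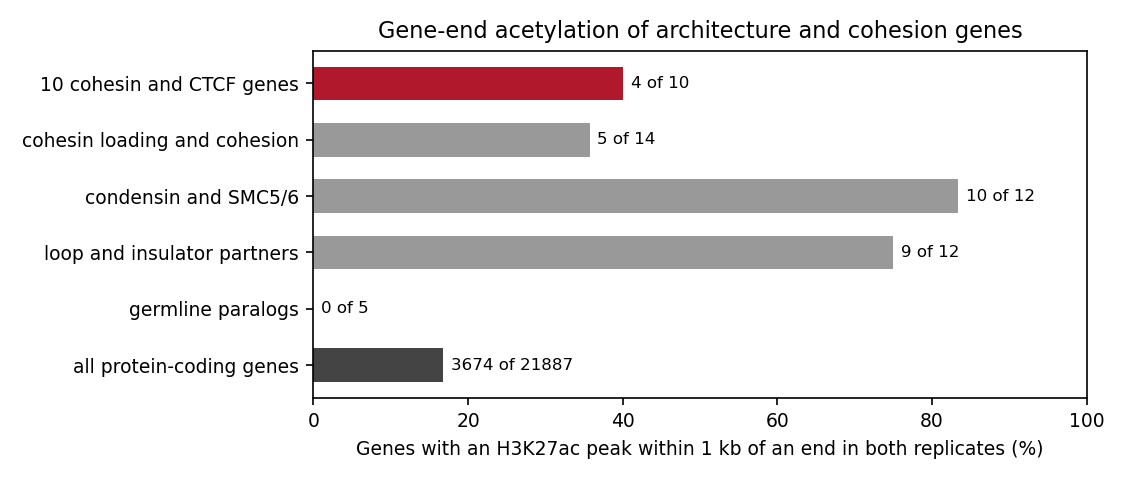
Percent of genes with an H3K27ac peak within 1 kb of an annotated end in both replicates, with the counts beside the bars. The 10 cohesin and CTCF genes stand at 4 of 10, between the germline paralogs at 0 of 5 and the condensin and SMC5/6 genes at 10 of 12.

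On the assembled chromosomes 12377 peaks were listed for replicate 1 and 9477 for replicate 2, and the depth behind them is unknown because the files hold no read counts. As a check of the labelled cell type, 5 of 12 T cell precursor markers had a gene-end peak in both replicates, against 16.8% of all protein-coding genes. Of these, Tcf7 and Dntt had folds of 2.21 to 3.12, and Cd3d, Cd3e and Cd3g, on chromosome 9 as Stag1 is, had folds of 1.05 to 1.23. The Cd3 genes lie side by side, and Cd3d and Cd3g have the same replicate 1 peak, so their calls are not separate observations. Of the other 7, Cd247, Thy1 and Il2ra, the gene of the sort marker CD25, met the rule only in replicate 2, Ptcra and Bcl11b only in replicate 1, and Lck and Gata3 in neither. None of 22 markers of later thymocytes, B cells, myeloid cells, erythroid cells and stroma had a gene-end peak in either replicate, against 30.5% of all genes. Within 25 kb or in the gene, 6 of these 22 had bases shared by both replicates, against 30.9% of all genes.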

How the data were processed

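Alignment to mm10 used Bowtie2 and peak calling used MACS 1.4.2, per the submitters' processing notes, although the deposited lists are laid out as MACS2 writes broad peaks. The peak names in the deposited files show 1 library each and duplicate removal. The cutoff and any control are not stated in what was used here. Chromatin was captured with an antibody against histone H3 and then with one against H3K27ac, per the labels' protocols.

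The authors deposited for each peak a fold enrichment, which is a ratio, a −log10 p and a −log10 q. They are values of the peak caller and served to describe, rank and filter peaks. The score that the authors deposited, a scaled −log10 q, was not used. No file gives counts, so the depth is unknown and no counting interval was made.

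Coordinates are counted from 1. Gene spans, names and promoter sequences came from RefSeq (GRCm38.p6, the build of mm10). The gene table gives no strand, so a gene-end peak lies within 1 kb of either annotated end. Starts and strands were used for the 7 genes with a promoter entry. Strings of letters were searched on both strands and may overlap one another. Shared bases lie under peaks of both replicates. Acetylated length is the shared bp within 25 kb of whichever annotated end had more.

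All 10 genes were named, as were list genes with a gene-end peak in both replicates and neighbours with an end within 1 kb of a peak. The genes and lists were chosen with earlier results of these data known, so counts are set beside all genes and no test was made. No measure of likeness to other genes was computed, because 2 samples of 1 condition give no pattern. Protein sequences were not used here, so paralogs were compared by their peaks alone. Interval counts were checked on simulated intervals. Python 3.11.15, pandas 2.3.3, numpy 2.4.6 and matplotlib 3.10.9 were used.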

Additional observations from a re-analysis of the deposited data

How the results depend on the processing

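With the stricter peaks most of the acetylation of these genes was gone. With a q of at most 0.05, of at most 1e-05, or the 5000 peaks of smallest p, 0 of the 10 genes had a gene-end peak in both replicates (against 2.64%, 0.731% and 4.2% of all genes), the median acetylated length was 0 bp against 831.5 bp with all peaks, and 1 gene, Wapl, had bases shared within 25 kb (5.72%, 1.34% and 8.64% of all genes) and in its body (1.25%, 0.279% and 1.9% of genes of at least 10 kb). Wapl lies in the chromosome 14 neighbourhood of low folds and small p. The other 43 loop and cohesion genes then had 4, 1 and 7 called in place of 24. A gene-end window of 2.5 kb gave 7 genes with a gene-end peak in place of 4 (18.9% of all genes). It gave 3 with shared bases beyond the window inside the body in place of 6 (4.18% of genes of at least 10 kb). With a peak in either replicate the median acetylated length was 1509.5 bp, and with 1 replicate alone it was 1094.5 to 1287 bp. The counts run under each setting kept within 1.5 times, and the median length within 1 SD of the replicates, under a window of 500 bp, an overlap of at least 50% of the shorter peak, the listed starts, windows of 10 and 50 kb, and without chromosomes 6, 9, 14 and 17. Without those chromosomes the genes other than Stag1 and Wapl stood at 4 of 8, against 16.9% of all genes. Single lengths moved more: with 10 kb Ctcf had 815 bp in place of 2139 and Nipbl 0 in place of 1544. No paired analysis was possible because the 2 replicates belong to 1 group. Depth is unknown, and the absence of a peak does not show absence of acetylation.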
